A study of Mus musculus with 24 samples.

Results

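The genes described here encode the chains of collagens II, IX and XI, the collagens from which the thin fibrils of cartilage are built. They were taken by symbol as a fixed set of 6 genes, Col2a1, Col9a1, Col9a2, Col9a3, Col11a1 and Col11a2, and all 6 were found among the 18052 genes of the stem cell table and among the 20968 genes of the score table, where 10 of 45101 probe sets carried their symbols. The study profiled the distal femur of C57BL/6J mice, the knee end of the thigh bone, on 24 Affymetrix arrays. Mouse skeletal stem cells (mSSCs), progenitors of cartilage, bone and stroma, were sorted from newborns at postnatal day 3 (4 arrays), from adults of 9 to 25 weeks after microfracture of the joint (3 arrays) and from uninjured adults of the same age range (3 arrays). Bulk tissue, which is the whole crushed bone end, gave 3 newborn, 3 microfractured adult and 5 uninjured adult arrays. A further 3 single arrays held mSSCs from microfractured adult joints given BMP2, soluble VEGFR1 (called VEGFR1 below) or the vehicle PBS. BMP2 is a bone morphogenetic protein, and VEGFR1 is a receptor for vascular endothelial growth factor, here in soluble form. All sorted groups shared one gate, in which cells carried integrin alpha V and were negative for TIE2, CD105, 6C3, THY1, TER119 and CD45, and each RNA came from 500 to 1000 cells amplified in 2 rounds. The labels do not say whether arrays came from separate animals or from pools, nor how long after microfracture the tissue was taken.

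Cartilage fibrils are heterotypic. Type II collagen, a homotrimer of the Col2a1 chain, makes up most of the fibril. Type XI collagen, which contains the Col11a1 and Col11a2 chains together with a chain that is also a Col2a1 product, lies in the fibril core, where it nucleates assembly and limits fibril width. Type IX collagen, a heterotrimer of the Col9a1, Col9a2 and Col9a3 chains, does not form fibrils itself but sits on the fibril surface and links it to other matrix proteins. In chondrocytes the transcription factor SOX9, with SOX5 and SOX6, is known to drive genes of this group. Loss of the minor collagens in mice or people leads to skeletal dysplasia or to early cartilage degeneration.

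The labels were set against the genes of the sort gate before the collagens were compared. Ptprc, which encodes CD45 and should be absent, averaged 58.7 ± 21.1 intensity units in newborn mSSC arrays (SD, n = 4), 650.9 ± 132.2 in microfractured adult arrays (n = 3) and 3462 ± 367 in uninjured adult arrays (n = 3). The uninjured adult arrays thus went against the gate for this gene, as did the microfractured adult arrays to a smaller extent. Itgav, the positive gate gene, averaged 829.8 ± 74.9 units in newborn arrays, 1339 ± 259 in microfractured adult arrays and 1050.1 ± 383.7 in uninjured adult arrays. Enpep, which encodes the excluded 6C3, averaged 60.2 ± 13.5 units in newborn arrays, 400.5 ± 141.9 in microfractured adult arrays and 171.6 ± 47.4 in uninjured adult arrays, and was thus highest after microfracture. Eng (CD105) averaged 131.8 ± 42.5, 129.7 ± 25.7 and 452.0 ± 53.3 units in newborn, microfractured adult and uninjured adult arrays, Tek (TIE2) 84.7 ± 21.8, 109.9 ± 41.0 and 566.3 ± 387.2, and Thy1 8.62 ± 1.34, 11.3 ± 6.1 and 46.0 ± 35.6, each highest in uninjured adults. Of 14 myeloid markers in the table, which cover macrophages and neutrophils, the summed intensity ran from 3292 to 4075 units in newborn arrays, from 11488 to 28144 in microfractured adult arrays and from 48579 to 64457 in uninjured adult arrays. The 8 osteoblast markers in the table summed to 4782 to 5632 units in newborn arrays, 34750.0 to 37045 in microfractured adult arrays and 35318 to 47112 in uninjured adult arrays. The 9 erythroid markers in the table summed to 428.6 to 904.6 units in newborn arrays, 1754 to 3189 in microfractured adult arrays and 9109 to 10503 in uninjured adult arrays, and the 6 lymphocyte markers to 138.8 to 332.2, 277.9 to 407.7 and 1750 to 2938 units in the same groups. None of the values behind these sums was 0. In both comparisons with uninjured adults all 12 myeloid, 8 erythroid and 3 lymphocyte markers that passed the filter on low values were called lower. The share of all genes lower was 19.8% for microfractured and 29.4% for newborn arrays. Microfractured against uninjured adult, the marker counts were 10, 6 and 2 after quantile normalization and 7, 8 and 2 after median-centring. The filter asked for 3 arrays, so markers high in the 3 uninjured adult arrays alone could pass. For those a lower call was nearly fixed. Newborn against microfractured adult the counts were 8 of 12, 8 of 8 and 0 of 3, with 18.3% of all genes lower. Of 7 osteoblast markers tested, newborn arrays had 7 called lower against uninjured adults (6 after median-centring) and 6 against microfractured adults. Microfractured adult arrays had 0 called against uninjured adults, with 1 lower after quantile normalization and 1 higher after median-centring. The part of these cells in the collagen differences was not tested.

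Promoter sequence was available for 4 of the 6 genes in RefSeq (GRCm38.p6), in 5 windows of 300 bases that run from 250 bases before to 50 after a start site. The windows of Col9a2 and Col11a2 are shown because these genes had the widest gap between newborn and uninjured adult mSSCs, and that of Col11a1 because it had the narrowest among the chains that rose. The windows are chr4:121039316-121039615 for Col9a2, chr17:34038888-34039187 for Col11a2 and chr3:114030290-114030589 for Col11a1, each on the plus strand. Capitals mark matches, on either strand, to GGGCGG (the GC box bound by SP1-type factors) and to TATAAA (the TATA box), with minus-strand matches in their plus-strand letters.
Col9a2: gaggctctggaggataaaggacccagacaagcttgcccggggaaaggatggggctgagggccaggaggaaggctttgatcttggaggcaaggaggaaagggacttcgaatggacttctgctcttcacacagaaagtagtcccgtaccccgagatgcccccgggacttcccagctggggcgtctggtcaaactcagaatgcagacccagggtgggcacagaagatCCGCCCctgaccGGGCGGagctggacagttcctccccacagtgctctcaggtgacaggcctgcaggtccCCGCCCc
Col11a2: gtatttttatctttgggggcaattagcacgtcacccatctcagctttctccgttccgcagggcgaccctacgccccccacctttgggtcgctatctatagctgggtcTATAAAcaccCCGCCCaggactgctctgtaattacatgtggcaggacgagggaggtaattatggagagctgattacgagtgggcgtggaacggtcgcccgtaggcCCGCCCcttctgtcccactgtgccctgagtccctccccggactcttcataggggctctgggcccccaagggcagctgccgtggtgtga
Col11a1: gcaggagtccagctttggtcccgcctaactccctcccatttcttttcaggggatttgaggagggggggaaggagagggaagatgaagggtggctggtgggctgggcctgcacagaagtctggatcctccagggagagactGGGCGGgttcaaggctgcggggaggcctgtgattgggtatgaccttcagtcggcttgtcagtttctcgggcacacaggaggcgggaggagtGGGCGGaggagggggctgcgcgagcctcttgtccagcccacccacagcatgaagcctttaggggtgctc
GGGCGG occurred 3 times in the Col9a2 window, 26 and 14 bases before the start site and 43 bases after it. It occurred 2 times in the Col11a2 window, 133 and 38 bases before the start, and 2 times in the Col11a1 window, 110 and 19 bases before it. Of 32851 mouse promoter windows of the same length, 35.7% held GGGCGG at least once. TATAAA was present in the Col11a2 window alone among the 5, 143 bases before the start, and in 13.6% of all windows. The matches to GGGCGG and to TATAAA did not overlap each other, and whether any of them acts in these cells was not tested. The SOX-type core motifs ACAAAG (18.7% of all windows) and ACAATG (12.6%) were in none of the 5 windows, which says only that these letters are not there. Both Col9a1 windows, chr1:24177360-24177659 and chr1:24194953-24195252 on the plus strand, held none of the motifs searched. GC content was 61.7% for Col9a2, 59.0% for Col11a2, 62.3% for Col11a1, and 47.3% and 55.7% for Col9a1, against a median of 52.7% over all windows.

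Newborn mSSCs had more RNA of all 5 partner chains, and less of Col2a1 itself, than mSSCs of uninjured adults. The chains of collagen IX and XI were 2.09-fold (Col11a1) to 12.3-fold (Col9a2) higher and Col2a1 was 2.56-fold lower, on the log2(intensity + 16) scale on which mSSC values were tested. All 6 passed limma's test at an adjusted p under 0.05, over a background in which 54.6% of the 10893 genes tested were called, 25.2% higher and 29.4% lower. A call in this comparison was therefore common for any gene, and the sizes say more than the count. The groups did not overlap for any of the 6, as for 61% of all genes tested (28.5% higher, 32.5% lower). The median difference of the 6 genes was 1.92 log2 units, against -0.02 over all genes.

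**Figure D1:**
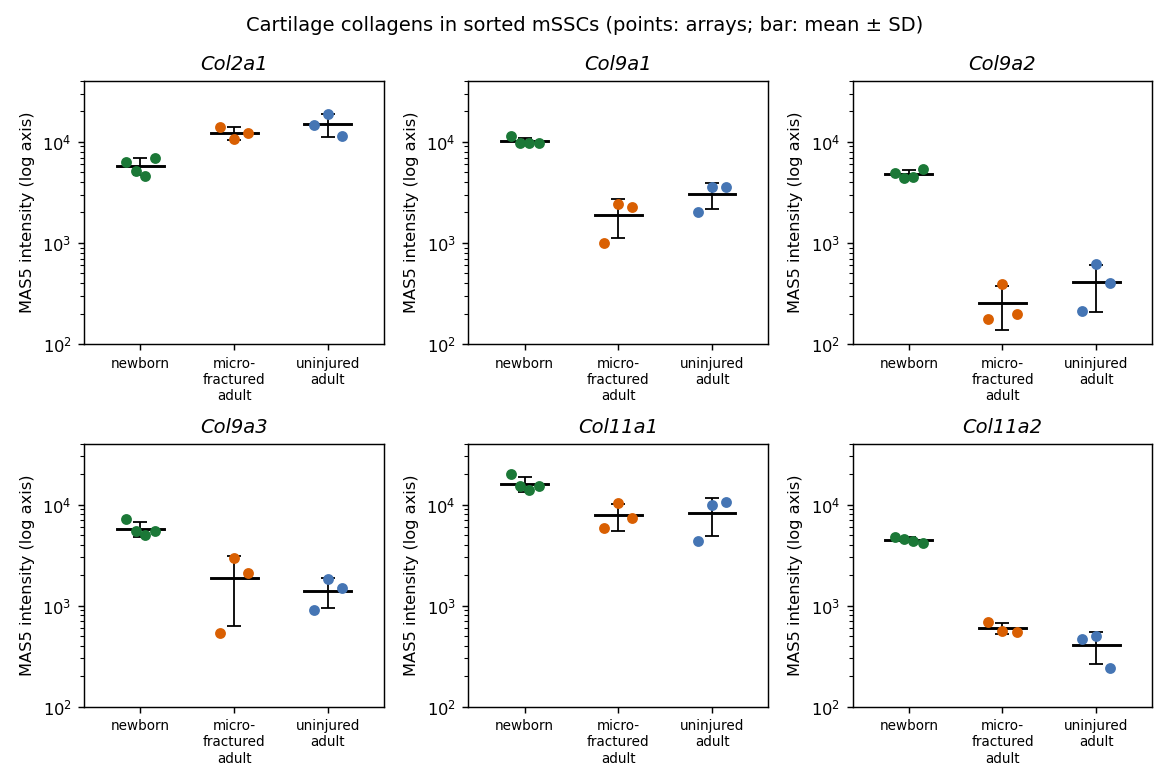
Intensity of the 6 cartilage collagen genes on each mSSC array, on a logarithmic axis, for newborn (4 arrays), microfractured adult (3) and uninjured adult (3) groups, with the mean and SD as bars. Newborn arrays sit below both adult groups for Col2a1 and above both for the other 5 genes.

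Col2a1, the chain of the major fibril collagen, had 6337, 5124, 4637 and 6993 intensity units in newborn mSSCs, 14058, 10555 and 12141 in microfractured adult mSSCs, and 14619, 18802 and 11328 in uninjured adult mSSCs. Every newborn array lay below every adult array, and the adult groups overlapped. The newborn minus uninjured adult difference was -1.36 ± 0.22 log2 units (SE, adjusted p = 0.000271), and the newborn minus microfractured adult difference was -1.09 ± 0.22 (adjusted p = 0.00181). With arrays centred on their medians the difference from uninjured adults was -0.65 (adjusted p = 0.0243), while the median of all genes moved by 0.70.

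Among the type IX chains, Col9a1 had 11335, 9778, 9668 and 9672 units in newborn mSSCs, 1007, 2437 and 2276 in microfractured adult mSSCs, and 2003, 3554 and 3554 in uninjured adult mSSCs. The lowest newborn array was above the highest adult array. Col9a1, whose chain carries a globular domain that projects from the fibril, was 1.78 ± 0.29 log2 units higher in newborn than in uninjured adult mSSCs (SE, adjusted p = 0.000298).

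Col9a2 had the widest contrast among the 6. It had 4932, 4421, 4523 and 5331 units in newborn mSSCs, 176.1, 389.4 and 195.8 in microfractured adult mSSCs, and 210.9, 614.9 and 397.0 in uninjured adult mSSCs. The adult values reached down below 250.4 units, the median of the whole table, on 2 of 3 microfractured arrays and 1 of 3 uninjured arrays. The newborn minus uninjured adult difference was 3.62 ± 0.32 log2 units (adjusted p = 2.74e-06). Col9a3, the third chain of the heterotrimer, had 7221, 5506, 4943 and 5428 units in newborn mSSCs, 537.7, 2965 and 2088 in microfractured adult mSSCs, and 903.9, 1831 and 1494 in uninjured adult mSSCs. Newborn arrays again lay above all adult arrays, but the microfractured arrays were spread over a wide range (coefficient of variation 66.0%). The newborn minus uninjured adult difference was 2.07 ± 0.45 (adjusted p = 0.00184).

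Of the type XI chains, Col11a1 had 20068, 15284, 13896 and 15295 units in newborn mSSCs, 5803, 10379 and 7395 in microfractured adult mSSCs, and 4337, 9797 and 10544 in uninjured adult mSSCs. The groups separated, though by less than for any other chain. The newborn minus uninjured adult difference was 1.06 ± 0.30 log2 units (adjusted p = 0.00997). It was 0.65 (adjusted p = 0.0406) without uninjured replicate 1 and 1.76 (adjusted p = 0.000386) with median-centred arrays. Col11a2 had 4784, 4609, 4402 and 4184 units in newborn mSSCs, 686.6, 562.2 and 551.4 in microfractured adult mSSCs, and 466.9, 503.5 and 240.7 in uninjured adult mSSCs. Its newborn arrays varied least among the 6 genes (coefficient of variation 5.77%), and the newborn minus uninjured adult difference was 3.49 ± 0.23 (adjusted p = 1.97e-07).

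Against microfractured adults the pattern had the same signs, and the comparisons share the newborn arrays. All 6 genes passed the test, over a background of 36.7% of genes called (18.4% higher, 18.3% lower), and all 6 had groups that did not overlap, against 42.8% of all genes (22.4% higher, 20.4% lower). Col9a2 was 4.24 ± 0.32 log2 units higher in newborn than in microfractured adult mSSCs (SE, 18.9-fold, adjusted p = 8.16e-07). Col11a2 was 2.88 ± 0.23 higher (7.35-fold, adjusted p = 1.11e-06) and Col9a1 2.50 ± 0.29 higher (5.64-fold, adjusted p = 2.84e-05). Col9a3 was 1.92 ± 0.45 higher (adjusted p = 0.00454), a value that became 1.19 (adjusted p = 0.00411) without microfractured replicate 1, the array with its lowest level. Col11a1 was 1.06 ± 0.30 higher (adjusted p = 0.0146), and without the same array the difference was 0.87 and no longer passed (adjusted p = 0.0523).

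After microfracture none of the 6 collagens passed the test against uninjured adults in mSSCs, in a comparison where 33.1% of genes were called (13.3% higher, 19.8% lower) and 44.2% had an unadjusted p under 0.05, as did 2 of the 6 collagens. Col11a2 had the clearest separation, with every microfractured array above every uninjured array and a difference of 0.61 ± 0.24 log2 units (SE, 95% interval 0.09 to 1.13, adjusted p = 0.0669). Groups that did not overlap were seen for 41.1% of all genes, 16.9% in this direction and 24.2% in the other. Col9a1 differed by -0.72 ± 0.31 (interval -1.40 to -0.04, adjusted p = 0.0933) and Col9a2 by -0.61 ± 0.34 (interval -1.36 to 0.13, adjusted p = 0.185). Col2a1 differed by -0.26 ± 0.24 (interval -0.77 to 0.25, adjusted p = 0.416). Col9a3 and Col11a1 differed by 0.15 ± 0.48 (interval -0.89 to 1.18) and by 0.00 ± 0.32 (interval -0.70 to 0.70), so a change of Col9a3 of about 1 log2 unit either way was within the error. The sign of Col2a1 turned after quantile normalization (0.13) and median-centring (0.39), and Col9a2 was at 0.041 after median-centring. The absence of calls depended on single arrays and on scaling. Col9a1 and Col9a2 passed as lower (adjusted p = 0.0455 and 0.0407) without uninjured replicate 1 and again (0.0469 and 0.0463) without microfractured replicate 2. Col9a3 passed as higher (0.87, adjusted p = 0.0277) without microfractured replicate 1, and Col11a2 passed as higher (0.80, adjusted p = 0.0480) without uninjured replicate 2.

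**Figure D2:**
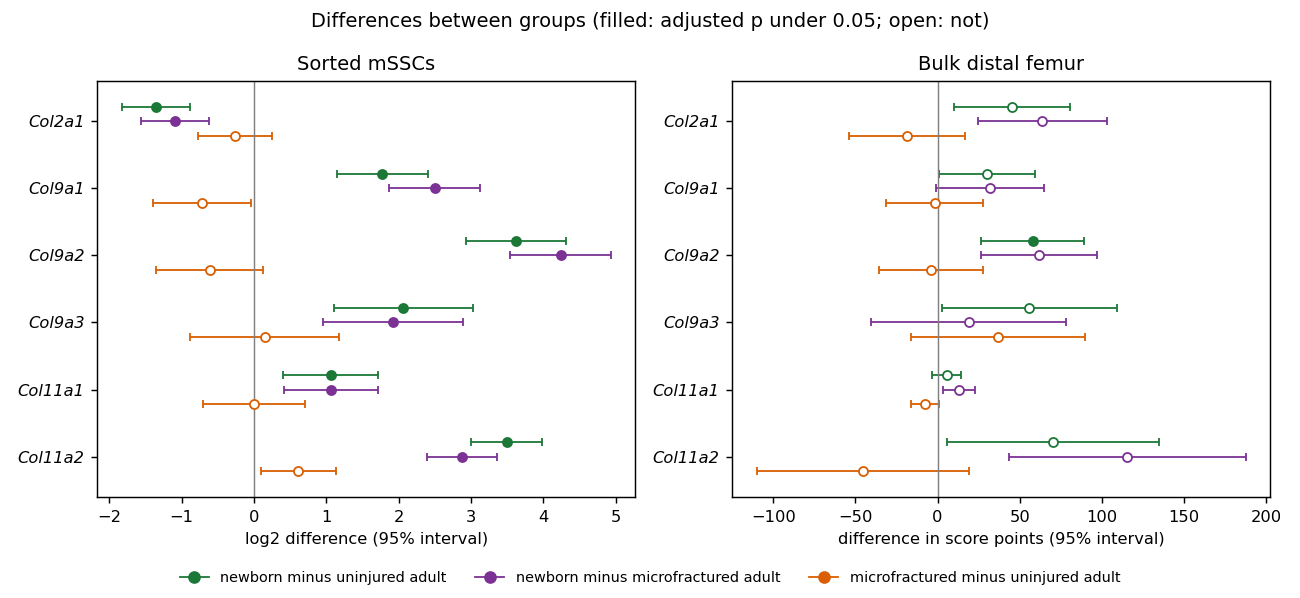
Differences between groups for each gene with 95% intervals, in log2 units for mSSCs (left) and in score points for bulk tissue (right), with filled symbols for an adjusted p under 0.05. In mSSCs both newborn comparisons lie left of 0 for Col2a1 and right of 0 for the other 5 genes, and in bulk tissue the newborn comparisons lie right of 0 for all 6 genes, with 1 of them filled.

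The balance within the group was followed through the log2 ratio of Col2a1 to each partner on the same array, in which the scaling of that array cancels. Levels of different probes cannot be set against each other, so only the change of a ratio between groups was read. That newborn ratios lie below adult ones follows from the levels already given, so the ratios add the size of the shift and no separate evidence. The ratio of Col2a1 to Col9a2 averaged 0.25 ± 0.16 in newborn mSSCs (SD, n = 4), 5.58 ± 0.78 in microfractured adult mSSCs (n = 3) and 5.23 ± 0.68 in uninjured adult mSSCs (n = 3). Newborn minus uninjured adult, the mean ratio shifted by -4.98 log2 units against Col9a2, -4.85 against Col11a2, -3.42 against Col9a3, -3.13 against Col9a1 and -2.42 against Col11a1. Microfractured minus uninjured adult, the shifts were between -0.88 (Col11a2) and 0.46 (Col9a1). The ratio to Col11a2 was 4.19 to 4.42 in microfractured adult mSSCs and 4.92 to 5.47 in uninjured adult mSSCs, without overlap. The adult groups overlapped for the other 4 partners. The level of Col11a2 itself did not overlap between the adult groups, as for 41.1% of all genes tested, so its ratio is no separate evidence either. The share of genes whose ratio to Col2a1 separates the adult groups was not computed.

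**Figure D3:**
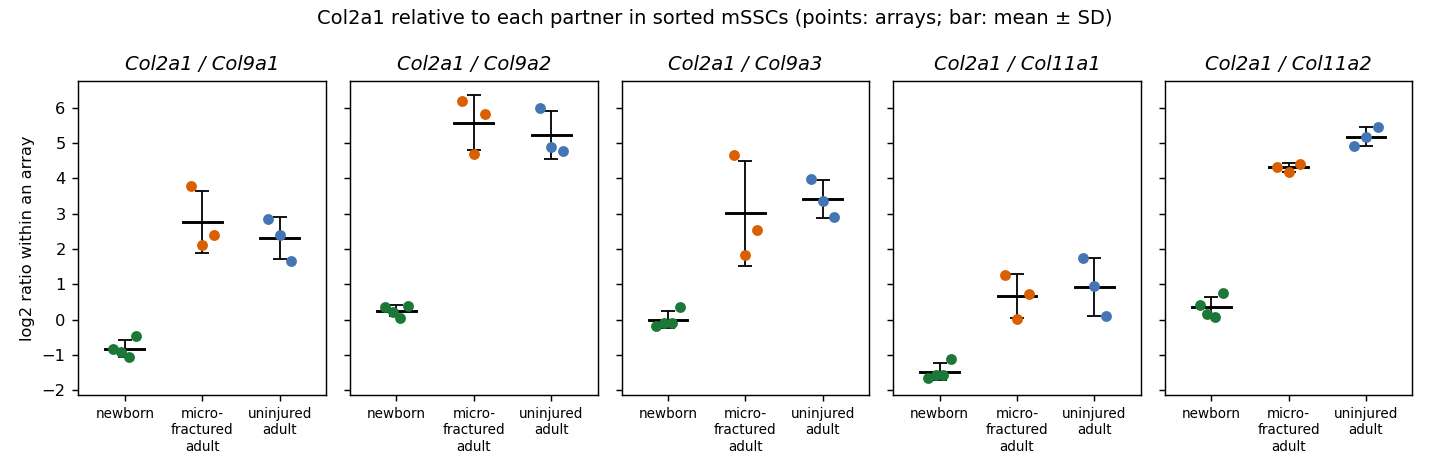
Log2 ratio of Col2a1 to each of the 5 partner chains on the same mSSC array, for newborn, microfractured adult and uninjured adult groups, with the mean and SD as bars. The mean shift between newborn and uninjured adult arrays is widest for Col9a2 (-4.98) and Col11a2 (-4.85).

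Over the 10 mSSC arrays Col2a1 ran against its partners, with Pearson correlations of -0.88 (Col11a2) to -0.76 (Col11a1) on the log2 scale. The 5 partners correlated with each other at 0.74 (Col11a1 with Col11a2) to 0.96 (Col9a1 with Col9a2). These values describe arrays that fall into newborn and adult groups, and they carry the age difference already given. The genes most like each collagen over these arrays were read from 10354 genes with official symbols. Col2a1 was most like Vdr (r = 0.97), the vitamin D receptor, B4galnt1 (0.97) and Chad (0.97), the cartilage leucine-rich protein chondroadherin. Col9a1 was most like Mpzl2 (1.00), Matn3 (0.99), a matrilin of cartilage, and Kctd4 (0.99). Col9a2 was most like Efcab1, Tpd52l1 and Nid2 (0.99 each), of which Nid2 encodes a basement membrane nidogen. Col9a3 was most like Edil3, Egr2 and Rnf138 (0.98 each), and Col11a1 most like Mpzl1 (0.99), Hapln1 (0.98), the link protein that ties aggrecan to hyaluronan, and Stk26 (0.98). Col11a2 was most like Fbxo17, Mbtd1 and Purb (0.98 each).

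In bulk distal femur newborn tissue had the higher mean score for all 6 collagens, Col2a1 included, except that Col9a3 differed from microfractured adults by -2.2 points (19.0 with all arrays) without microfractured replicate 2. The score is bounded at -100 and 100, and its zero point is not given in the sources used here, so differences are in score points and are not folds. Against uninjured adults 1 of the 6, Col9a2, passed limma's test, where 6.36% of the 16606 genes tested were called (2.01% higher, 4.35% lower). Unadjusted p-values were under 0.05 for 5 of the 6 collagens, against 20.4% of all genes. Groups did not overlap for Col2a1, Col9a1 and Col9a2, all higher in newborn tissue, as for 7.11% of all genes in that direction, 9.18% in the other and 16.3% in either. The median difference was 50.5 score points for the 6 collagens and 0.18 points over all genes. In crushed bone, fewer cells of a type and less RNA per cell cannot be told apart. Myeloid markers moved the other way, with a mean score over 14 genes of -40.6 to -16.2 in newborn bulk arrays, 31.5 to 38.5 in microfractured adult arrays and 42.8 to 47.7 in uninjured adult arrays, and 10 of 14 called lower in newborn than in uninjured adult tissue. Their part in the collagen differences was not tested.

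Col9a2 had scores of 58.7, 37.2 and 44.9 in newborn bulk tissue, -7.8, 0.95 and -37.6 in microfractured adult tissue, and -5.7, -3.4, -17.8, -24.9 and -2.5 in uninjured adult tissue. Newborn arrays lay above every adult array, and the adult groups overlapped. The newborn minus uninjured adult difference was 57.8 ± 14.4 points (SE, adjusted p = 0.0381). This call was lost without any 1 of 8 arrays, with adjusted p between 0.0509 and 0.0955: each of the 5 uninjured adult replicates, newborn replicates 1 and 3, and microfractured replicate 1. The size of the difference stayed between 51.9 and 59.9 points in those fits.

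Col2a1 had scores of 95.2, 95.5 and 95.4 in newborn bulk tissue, 25.4, 24.9 and 44.4 in microfractured adult tissue, and 58.7, 9.9, 64.8, 42.7 and 74.6 in uninjured adult tissue. The newborn arrays were close to the upper bound and above every adult array, whereas the adult groups overlapped widely. The newborn minus uninjured adult difference of 45.3 ± 16.04 points (SE) did not pass (adjusted p = 0.132), nor did the newborn minus microfractured adult difference of 63.8 ± 17.9 (adjusted p = 0.113). In mSSCs the newborn arrays had the lower Col2a1 level, so the sign differed between sorted cells and bulk tissue. This difference was not tested, because the tables are in different units from different arrays.

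Col9a1 was measured by 2 probe sets in the score table. The one with the higher mean, 1428571_at, had scores of 65.7, 93.3 and 78.2 in newborn tissue, 47.9, 54.6 and 39.2 in microfractured adult tissue, and 36.9, 58.6, 52.3, 61.3 and 35.7 in uninjured adult tissue. Newborn arrays lay above all adult arrays, and the difference from uninjured adults was 30.1 ± 13.4 points (SE, adjusted p = 0.233). The second, 1421381_a_at, had scores of 66.3, 33.2 and 83.1 in newborn tissue, -94.3, -44.4 and -56.7 in microfractured adult tissue, and -98.0, -70.7, -12.9, -66.5 and -66.6 in uninjured adult tissue. When 27285 probe sets were tested singly, this second set was 123.8 ± 21.2 points higher in newborn than in uninjured adult tissue (adjusted p = 0.00783) and 126.0 ± 23.7 higher than in microfractured adult tissue (adjusted p = 0.0275). The call for Col9a1 in bulk tissue thus turned on the probe set.

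Col9a3 had 3 probe sets, which disagreed in the adults. The set with the highest mean, 1420280_x_at, whose suffix marks probes that may also bind other sequences, had scores of 42.7, 90.7 and 55.9 in newborn tissue, 82.6, 1.7 and 48.0 in microfractured adult tissue, and -15.5, -9.7, 12.4, -0.6 and 50 in uninjured adult tissue. Its groups overlapped in every comparison, and the newborn minus uninjured adult difference was 55.8 ± 24.1 points (SE, adjusted p = 0.219). The set 1460734_at had 92.8, 92.4 and 95.5 in newborn tissue, 4.0, 2.5 and 21.8 in microfractured adult tissue, and 47.3, -16.6, -6.0, -11.5 and -38.7 in uninjured adult tissue. Tested singly it was 98.7 ± 21.0 points higher in newborn than in uninjured adult tissue (adjusted p = 0.0192), while the set 1460693_a_at was 72.5 ± 21.7 higher and did not pass (adjusted p = 0.0734). For both of these sets all newborn arrays lay above all adult arrays. Against microfractured adults, newborn tissue was 90.2 ± 24.2 points higher in 1460693_a_at and 84.1 ± 23.5 higher in 1460734_at. Neither passed (adjusted p = 0.0944 and 0.107).

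Col11a1 had high scores in every group and came nearest to the upper bound in newborn tissue. The set with the higher mean, 1418599_at, had 97.0, 97.7 and 93.3 in newborn tissue, 84.4, 83.2 and 81.1 in microfractured adult tissue, and 93.8, 87.0, 91.1, 88.0 and 92.4 in uninjured adult tissue. The microfractured arrays lay below all others, at -7.6 ± 4.0 points from uninjured adults (SE, adjusted p = 0.572) and with a newborn minus microfractured adult difference of 13.1 ± 4.4 (adjusted p = 0.176). The other Col11a1 set, 1449154_at, ran from 82.3 to 99.4 in newborn tissue, from 60.5 to 75.5 in microfractured adult tissue and from 69.7 to 81.3 in uninjured adult tissue. Col11a2 had scores of 54.2, -22.2 and 62.0 in newborn tissue, -65.9, -92.8 and -93.7 in microfractured adult tissue, and 33.3, -76.4, -95.7, -21.6 and -33.0 in uninjured adult tissue. Its groups overlapped except for newborn against microfractured tissue, where the difference of 115.4 ± 32.8 points was the largest of the 6 and did not pass (adjusted p = 0.116). Col11a2 passed the filter on low values through newborn replicates 1 and 3 and uninjured adult replicate 1 alone.

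**Figure D4:**
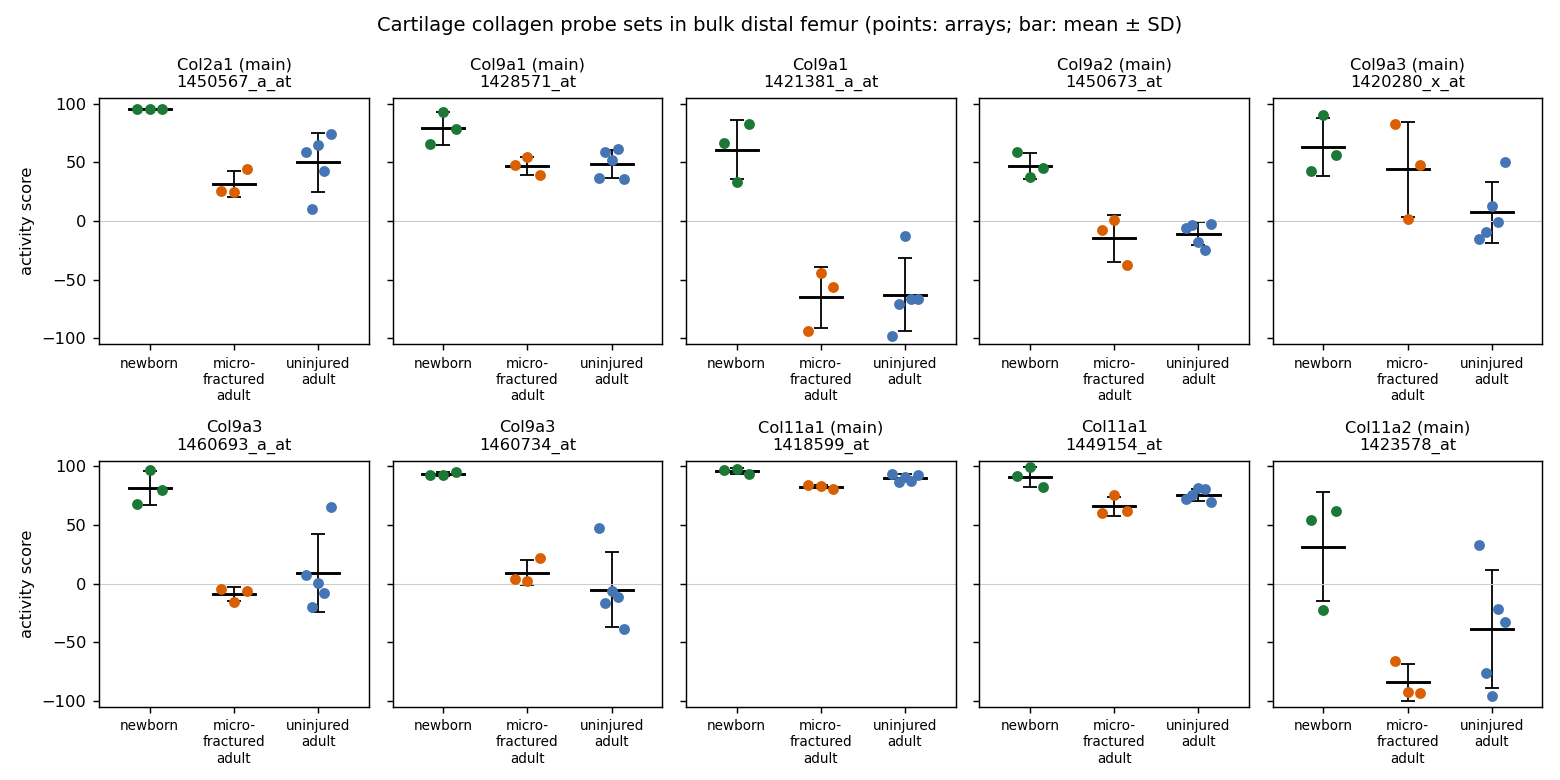
Activity score of the 10 probe sets that name a cartilage collagen, on each bulk array of the newborn (3), microfractured adult (3) and uninjured adult (5) groups, with the mean and SD as bars, and "main" on the set used for the gene. Newborn arrays lie above all adult arrays for 7 of the 10 sets, while the sets of Col9a1 and of Col9a3 differ from each other in the adult groups. The 10 sets measure 6 genes, so they are not separate results. The share of all probe sets that separate in this way was not computed.

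Newborn against microfractured adult bulk tissue gave no call among the 6 collagens, where 1.45% of genes were called (0.403% higher, 1.05% lower) and 4 of the 6 collagens, against 15.2% of all genes, had an unadjusted p under 0.05. Groups did not overlap for 5 of the 6, all higher in newborn tissue, as for 8.36% of all genes in that direction, 11.4% in the other and 19.7% in either. Microfractured against uninjured adult bulk tissue gave no call in limma at all, with 0% of 16606 genes past the threshold and 9.80% under an unadjusted p of 0.05. None of the 6 collagens was under 0.05 unadjusted there. Groups did not overlap for Col11a1 alone, which was lower after microfracture, as for 4.55% of all genes in that direction, 5% in the other and 9.55% in either. Their differences ran from -45.4 ± 29.3 points for Col11a2 (adjusted p = 0.647) to 36.8 ± 24.1 for Col9a3 (adjusted p = 0.649), and intervals as wide as -110.0 to 19.1 points (Col11a2) leave changes of either sign within the error.

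The bulk arrays did not show the opposition seen in mSSCs. Over 11 arrays Col2a1 correlated with its partners at 0.47 (Col9a3) to 0.83 (Col11a1), and all 15 pairs of members were above 0, from 0.11 (Col9a3 with Col11a2) upwards. Among 12896 genes, Col2a1 was most like Smo (r = 0.97), the transducer of hedgehog signals, Dap (0.95) and Kifap3 (0.95). Col9a1 was most like Chsy1 (0.94), a chondroitin synthase, Wwtr1 (0.93) and Mettl1 (0.90). Col9a2 was most like Adamts3 (0.96), a procollagen N-proteinase, Ift88 (0.95), a transport protein of cilia, and Avpr1a (0.93). Col9a3 was most like Racgap1, Zfp128 (0.93 each) and Maged2 (0.92). Col11a1 was most like Col1a2 (0.94), a chain of type I collagen, Rpl4 (0.93) and Igsf3 (0.91), and Col11a2 most like Mrps26, Zc3h18 and Stx4a (0.93 each).

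In mSSCs from treated microfractured joints, with 1 array per treatment and no test, no collagen differed by 50 score points or more in any pair of treatments, where 11.6% (BMP2 against PBS), 10.6% (VEGFR1 against PBS) and 11.7% (BMP2 against VEGFR1) of 20968 genes did. Col2a1 scored 94.4 with BMP2, 95.2 with VEGFR1 and 94.7 with PBS. Col11a1 scored 93.3 with BMP2, 96.1 with VEGFR1 and 94.5 with PBS. Both were near the upper bound, where little further rise could be recorded. Col9a1 scored 32.3 with BMP2, 33.8 with VEGFR1 and 42.1 with PBS, and Col9a3 scored 46.1 with BMP2, 44.1 with VEGFR1 and 66.9 with PBS. Col9a2 scored -39.6 with BMP2, -50.6 with VEGFR1 and -23.7 with PBS. Col11a2 scored -49.3 with BMP2, -57.6 with VEGFR1 and -16.04 with PBS, which gave the largest gaps from PBS among the 6, at -33.3 points for BMP2 and -41.6 for VEGFR1. Col9a1, Col9a2 and Col11a2 had their highest score on the single PBS array that both comparisons share. For Col9a3 this was so of 1420280_x_at alone, since 1460734_at scored -5.7 with BMP2, -7.7 with VEGFR1 and -7.8 with PBS, and 1460693_a_at scored -2.26 with BMP2, -8.5 with VEGFR1 and -2.25 with PBS.

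**Figure D5:**
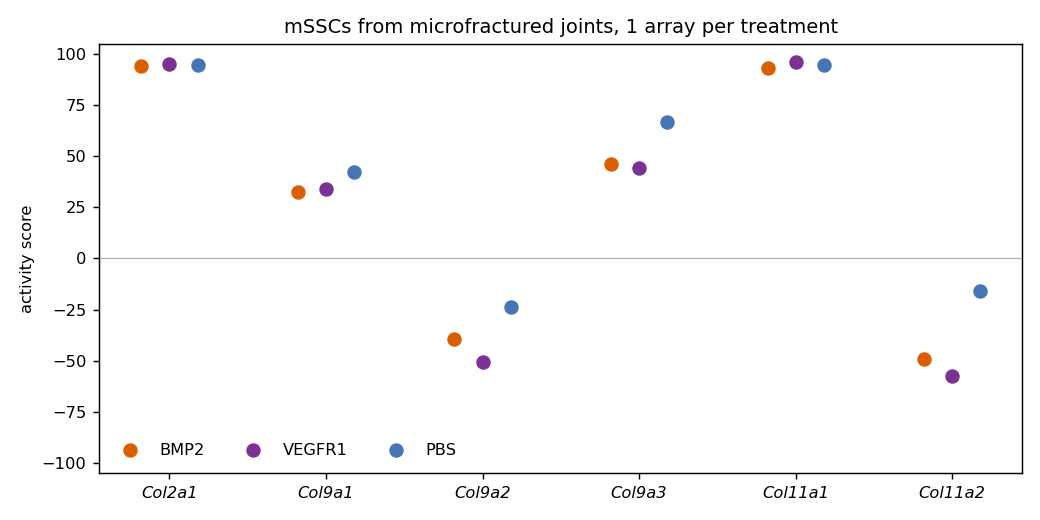
Activity score of the 6 cartilage collagens in mSSCs from microfractured adult joints given BMP2, VEGFR1 or PBS, with 1 array per treatment and no error bars. Col2a1 and Col11a1 are above 90 in all 3 arrays, and the PBS array is highest for the other 4 genes, for Col9a3 in the probe set shown.

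Genes that act with these collagens were followed in mSSCs as lists chosen with earlier results of these data known. Each count stands against the background percentages already given for its comparison. Of 9 chondrogenic regulators, 7 passed the filter on low values. Newborn against uninjured adult, 4 rose and 1 fell, among them Sox5 (1.41 ± 0.18 log2 units, SE, adjusted p = 3.87e-05) and Sox6 (1.71 ± 0.24, adjusted p = 9.55e-05), the partners of SOX9, and Wwp2 (1.38 ± 0.19, adjusted p = 7.74e-05), a ubiquitin ligase that works with SOX9. The gene that fell, named after its values were seen, was Arid5b at -0.54, and when arrays were centred on their medians its difference was 0.17 (adjusted p = 0.494). After microfracture 3 of the 7 were higher than in uninjured adults and none lower. These were Sox5 (1.34 ± 0.19, adjusted p = 0.00104), Sox9 (1.22 ± 0.27, adjusted p = 0.00654) and Wwp2 (0.59 ± 0.20, adjusted p = 0.0377), the last of which did not pass after quantile normalization (0.17, adjusted p = 0.499). The collagens themselves were not called in that comparison.

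All 14 cartilage matrix partners passed the filter, and newborn mSSCs had 8 higher and 3 lower than uninjured adults, with a list median of 0.90 log2 units against -0.02 over all genes. Matn1, the matrilin of immature cartilage, was 5.25 ± 0.32 log2 units higher (SE, adjusted p = 1.38e-07). Prg4, which encodes the joint lubricant lubricin, was -3.62 ± 0.25 (adjusted p = 3.37e-07) and Cytl1 -1.82 ± 0.20 (adjusted p = 1.40e-05), so that Col2a1 was not alone among cartilage genes in being lower in newborns. Microfractured adults had 3 lower and none higher than uninjured adults, where 19.8% of all genes were lower and 13.3% higher. The 3 were Matn1 (-1.97 ± 0.35, adjusted p = 0.00228), Cytl1 (-1.07 ± 0.21, adjusted p = 0.00379) and Prg4 (-0.82 ± 0.27, adjusted p = 0.0324). Matn1 did not pass after quantile normalization, Cytl1 did not pass after median-centring, and Prg4 passed after neither. After median-centring the list had 3 higher and 1 lower.

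A further list held enzymes and carriers that modify collagen chains in the endoplasmic reticulum and move them out of the cell. Of 15 measured, 13 were higher and none lower in newborn than in uninjured adult mSSCs, and 9 were higher and none lower in microfractured than in uninjured adult mSSCs. Plod1, a lysyl hydroxylase, was 2.83 ± 0.23 log2 units higher in newborn mSSCs (SE, adjusted p = 1.36e-06) and 2.29 ± 0.25 higher in microfractured adult mSSCs (adjusted p = 0.000443), each against uninjured adults. P4ha2, a prolyl 4-hydroxylase subunit, was 2.35 ± 0.19 higher in newborn mSSCs (adjusted p = 1.50e-06) and 1.87 ± 0.21 higher in microfractured adult mSSCs (adjusted p = 0.000464). Both comparisons share the uninjured adult arrays. After quantile normalization the counts were 12 and 5, and after median-centring all 15 in each. Newborn against microfractured adult, 3 of 15 were higher, near the 18.4% of all genes higher in that comparison. They were led by P3h1 (1.41 ± 0.19, adjusted p = 9.22e-05), a prolyl 3-hydroxylase.

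Genes for trimming and crosslinking of procollagen went both ways. Newborn against uninjured adult, 5 of 10 were higher and 4 lower. Loxl3 (2.22 ± 0.20 log2 units, SE, adjusted p = 3.13e-06) and Loxl2 (1.85 ± 0.17, adjusted p = 4.25e-06), lysyl oxidase-like crosslinking enzymes, were higher. Adamts2, an N-proteinase of fibrillar procollagens, was lower (-3.41 ± 0.21, adjusted p = 1.50e-07). Newborn against microfractured adult, 3 of 10 were higher and 6 lower, with Adamts3, the N-proteinase known for type II procollagen, higher (2.91 ± 0.28, adjusted p = 5.14e-06), and Adamts2 (-4.28 ± 0.21, adjusted p = 2.65e-08) and Lox (-3.32 ± 0.27, adjusted p = 1.36e-06) lower. Microfractured against uninjured adult, 5 of 10 were higher and none lower, led by Loxl2 (2.53 ± 0.18, adjusted p = 5.19e-05). After quantile normalization that count was 2, and after median-centring 8.

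Of 7 collagen breakdown genes, 5 were lower in newborn mSSCs and none higher than in uninjured adults, with the other 2 not called, and the counts against microfractured adults were the same. Mmp13, the collagenase with strong activity on type II collagen, was -5.68 ± 0.24 log2 units from uninjured adults (SE, adjusted p = 8.51e-09) and -4.88 ± 0.24 from microfractured adults (adjusted p = 2.65e-08). Mmp8, a collagenase known from neutrophils, was -5.74 ± 0.34 (adjusted p = 1.32e-07) and -3.79 ± 0.34 (adjusted p = 3.65e-06) in the same comparisons, beside the myeloid marker sums given above. After median-centring the newborn against uninjured adult counts were 4 lower and 2 higher. Collagen receptors had 2 of 5 tested higher and none lower in newborn than in uninjured adult mSSCs, led by Ddr1 (1.33 ± 0.24, adjusted p = 0.000566), a receptor tyrosine kinase for collagen, and after median-centring all 5 were higher.

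The 12 other fibrillar and fibril-associated collagens went both ways. Newborn against uninjured adult, 3 were higher and 4 lower, with a list median of -0.33 log2 units. These counts were near the shares over all genes, 25.2% higher and 29.4% lower. Col27a1, a fibrillar collagen of cartilage, was 0.98 ± 0.16 higher (SE, adjusted p = 0.000267), while Col1a1, the main bone collagen, was -1.69 ± 0.25 (adjusted p = 0.000136) and Col5a3 -1.88 ± 0.32 (adjusted p = 0.000369). After median-centring the counts were 6 higher and 2 lower, and the list median was 0.37 against 0.68 over all genes. Newborn against microfractured adult, 1 was higher and 6 lower, where 18.4% of all genes were higher and 18.3% lower. Microfractured against uninjured adult, 3 were higher and 1 lower, where 13.3% of all genes were higher and 19.8% lower. The higher ones were led by Col10a1 (2.30 ± 0.32, adjusted p = 0.00104), the collagen of hypertrophic cartilage, and Col5a1 (1.28 ± 0.22, adjusted p = 0.00202). The single lower one, named after its values were seen, was Col1a2 at -0.68, and after quantile normalization its difference was 0.11 (adjusted p = 0.603).

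In bulk tissue the same lists had fewer calls. Newborn against uninjured adult, 2.01% of all genes tested were called higher and 4.35% lower. Sox9 was 130.7 ± 23.0 score points higher (SE, adjusted p = 0.00913), the only 1 of 8 chondrogenic regulators called. Higher calls were also made for 4 of 13 matrix partners, 4 of 12 modification genes and 3 of 10 processing genes, with none lower. Matn1 was 62.4 ± 13.7 higher (adjusted p = 0.0232) and Chad 95.3 ± 23.1 higher (adjusted p = 0.0341). P3h1 was 151.0 ± 30.5 higher (adjusted p = 0.0166), and Loxl3 137.5 ± 18.6 higher (adjusted p = 0.00285). Of 7 breakdown genes 3 were lower, with Mmp13 at -63.4 ± 14.1 points (adjusted p = 0.0241).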

How the data were processed

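Gene expression was measured on Affymetrix arrays of sorted mSSCs and bulk distal femur. For each gene of the 10 replicated mSSC arrays the values the authors deposited are intensity on a linear scale, with MAS5 named in the submitters' processing notes. The 2% trimmed mean lay between 490.3 and 494.9 on every array. For the 11 bulk and 3 factor arrays the authors deposited an activity score per probe set, bounded at -100 and 100. How it was computed is not given in the sources used here. Per-platform value tables held the same values (0 of 180520 and 0 of 631414 differed by more than 0.005) and were not analysed apart. The number of arrays limits the precision. Replicates correlated at 0.832 to 0.967 across genes in mSSC groups and at 0.417 to 0.788 in bulk groups.

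Arrays were grouped by title. Of 18052 mSSC rows, 17994 matched the RefSeq gene table by Entrez ID, which served for symbols only. Of the probe sets, 38557 carried 1 symbol, 860 several and 5684 none. A gene was represented by its single-symbol set with the highest mean. Genes were kept where 3 or more arrays exceeded the table median (250.4 intensity units in mSSCs, a score of -16.4 in bulk tissue), 10893 in mSSCs and 16606 in bulk tissue. All 6 collagens passed, Col11a2 in bulk tissue on 3 arrays only, newborn replicates 1 and 3 and uninjured adult replicate 1. Log2(intensity + 16), or the score, was fitted with lmFit for the 3 groups together, followed by contrasts and eBayes with trend (limma 3.58.1, R 4.3.3, 2-sided), with Benjamini-Hochberg adjustment over all genes kept and a threshold of 0.05. Probe sets were also tested singly. The errors beside differences are SEs, and those beside means are SDs. The fit was tested on simulated data, where it recovered most of the large changes set in mSSCs and missed most of those set in bulk scores. A bulk difference that did not pass is therefore not evidence of no change. The changes set in mSSCs and in bulk scores were in different units, so the recoveries cannot be set against each other. Because no label ties a replicate to an animal of its own, the p-values cover only the spread between these arrays, which may be technical. Figures were drawn with matplotlib 3.10.9.

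The members, the gene lists and the tests were chosen with earlier results of these data known. The text names the 6 collagens, at most 3 genes of a list with the smallest p per comparison, and the 3 genes most correlated with each collagen. Alternatives were the pseudocount (1 or 64), the filter, quantile normalization, median-centring, the choice of probe set, the variance trend, fits of 2 groups alone, a replicate block and leaving out each array.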

Additional observations from a re-analysis of the deposited data

Results flagged for a closer look

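Newborn replicate 1 stood apart from the other newborn mSSC arrays for Col9a1, at 11335 intensity units, with a gap that made up 0.929 of the group's range. The other newborn arrays were at 9668 to 9778 units, and replicate 1 also had the highest newborn Col9a3, Col11a1 and Col11a2. Without it Col9a1 was 1.72 log2 units higher in newborn than in uninjured adult mSSCs. Of the groups large enough to look for such a sample, 12 were examined, and chance marks about 1 group in 20.

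Col2a1 had differences of opposite sign in sorted cells and bulk tissue. Newborn minus uninjured adult it was -1.36 log2 units in mSSCs and 45.3 score points in bulk tissue, and newborn minus microfractured adult it was -1.09 log2 units and 63.8 score points, with every newborn array below every adult array in mSSCs and above every adult array in bulk tissue. The difference between sorted cells and bulk tissue was not tested, and the bulk differences themselves did not pass the threshold (adjusted p = 0.132 and 0.113).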

How the results depend on the processing

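In mSSCs all 6 collagens kept the direction and the call of both newborn comparisons under every alternative run, except Col11a1 against microfractured adults without microfractured replicate 1 (0.87 log2 units, adjusted p = 0.0523). Median-centring raised the median of all genes by 0.65 log2 units for microfractured minus uninjured adult and by 0.70 for newborn minus uninjured adult, since the array medians of the uninjured adult group, at 315.0 to 349.4 intensity units, were above the 182.3 to 210.2 of newborn and the 174.8 to 225.7 of microfractured adult arrays. It turned the share of higher calls over all genes from 40.3% to 84.0% and from 46.1% to 76.1%, against 53.2% and 54.3% after quantile normalization. Under it Col2a1 was -0.65 log2 units and Col11a1 1.76 from uninjured adults, and relative to the median of all genes Col2a1 was -1.33 either way. The number of collagens called between microfractured and uninjured adult mSSCs, 0 as reported, was 2 after quantile normalization (Col9a1 at -1.13, adjusted p = 0.0118, and Col11a2 at 0.99, adjusted p = 0.0396), 1 after median-centring (Col11a2 at 1.27, adjusted p = 0.00146) and between 0 and 2 when 1 array was left out. In bulk tissue the count between newborn and uninjured adult, 1 as reported, was 3 with the mean of all probe sets (Col9a1 and Col9a3 joined). It was 2 with the most variable probe set (Col9a1 and Col9a3, without Col9a2). It was 0 without the filter, after quantile normalization, after median-centring, with 2 groups fitted alone and with the replicate block. At the filter's 75th percentile it was also 0, but Col9a2 did not pass that filter and was not tested. Leaving out 1 array gave 0 to 1. Col11a2 was not tested at the 75th percentile, nor without newborn replicate 1, newborn replicate 3 or uninjured adult replicate 1, in any bulk comparison. Between newborn and microfractured adult bulk tissue the count, 0 as reported, was 1 with the mean of all probe sets (Col9a1, adjusted p = 0.0301), with the most variable set (Col9a1, 0.0346) and without a variance trend (Col9a2, 0.04997).

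Correlations of deviations between same-numbered arrays were -0.04 to 0.28 in mSSCs and -0.22 to 0.12 in bulk tissue, over 9 pairs each. Differently numbered arrays gave -0.25 to 0.35 (24 pairs) and -0.14 to 0.22 (30 pairs). With so few arrays per group these values cannot settle whether the numbers pair the arrays, and the main fit did not pair them. The replicate block changed no collagen call in mSSCs (6, 6 and 0 called), and in bulk tissue it took the newborn against uninjured adult count to 0 (Col9a2 at 55.9 points, adjusted p = 0.220). Over all genes, mSSC calls ranged over the alternatives from 1742 to 6242 (3606 as reported) for microfractured against uninjured adult, from 3369 to 9549 (5945) for newborn against uninjured adult and from 2628 to 4131 (3997) for newborn against microfractured adult. The lowest came with the stricter filter, which tested 5679 genes, and the highest with no filter, which tested 18052. In bulk tissue the ranges were 0 to 67 (0), 0 to 1425 (1056) and 0 to 416 (241), and with the replicate block 0 of 16606 genes were called in each comparison, so no list gene named for bulk tissue was called there. Of the differences that did not pass, some turned sign. Microfractured minus uninjured adult in mSSCs, Col2a1 (-0.26 as reported) was 0.13 after quantile normalization and 0.39 after median-centring, Col9a2 (-0.61) 0.041 after median-centring, Col9a3 (0.15) -0.16 after quantile normalization and -0.34 to 0.87 with 1 array left out, and Col11a1 (0.00) 0.0098 after quantile normalization, 0.65 after median-centring and -0.41 to 0.23 with 1 array left out. In bulk tissue, with 1 array left out, Col9a1 (-1.73) was -5.4 to 2.3 and Col9a2 (-3.93) -11.8 to 7.5 in that comparison, and Col9a3 newborn minus microfractured adult (19.0) was -2.2 to 38.3. The cause of these differences was not tested. Low adult signal limits Col9a2. Scores near the upper bound limit Col2a1 in newborn bulk tissue and on the factor arrays, and Col11a1 in its main probe set.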
